A study of Mus musculus with 4 samples.

Results

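The Rab GTPase genes were described here at the level of promoter and distal H3K27ac in mouse cerebral cortex. The members were the protein-coding genes of the GENCODE vM21 basic annotation whose symbols are Rab followed by a number, with an optional letter or an l suffix, and 60 of 21755 protein-coding genes met this rule. One of them, Rab3il1, encodes a Rab3A-interacting exchange factor and not a GTPase. It was kept in the 60 and is described apart, which leaves 59 Rab GTPase genes.

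The assay was chromatin immunoprecipitation sequencing of H3K27ac, the acetylated lysine of histone H3 that marks promoters and enhancers in use. The tissue was left cerebral cortex from adult female mice aged 2 months, all B6CASTF1/J hybrids, whose parents are the strains C57BL/6J and CAST/EiJ. The 4 samples made 1 group: pool I and pool J, each of 4 biosamples, with 2 technical libraries per pool. No second tissue, genotype or treatment was part of the design, so no contrast was tested and each pool gave 1 value per peak with no SD.

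Rab GTPases are small switches on the surface of membranes. Exchange factors load them with GTP, activating proteins speed its hydrolysis, and GDP dissociation inhibitors return the inactive form to the cytosol, while each active Rab recruits effectors to one kind of compartment. In neurons this family serves synaptic vesicle release, the recycling of receptors through endosomes, traffic between the endoplasmic reticulum (ER) and the Golgi, and transport to lysosomes and cilia.

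Peaks were taken from 4 lists deposited on mm10: a replicated list of 72027 peaks made from both pools, a pseudoreplicated list of both pools with 76359 peaks, and the lists of pool I and pool J alone with 69834 and 49839 peaks. The signal of a peak is the value that the authors' peak caller gave it, and the sources used here do not say how it was normalised. A gene is called marked where a peak of the replicated list lies within 1000 bp of any of its transcription start sites (TSSs), and its promoter signal is that of the highest such peak. The depth of the libraries is unknown, so a gene without a peak was not detectable in these lists, which does not show that it lacks acetylation. The tissue was whole cortex, in which fewer cells carrying the mark and less acetylation per cell cannot be told apart. Among genes that mark cortical cell types, 6 of 6 excitatory neuron genes were marked. So were 3 of 6 interneuron genes (not Pvalb, Sst and Vip), 5 of 6 astrocyte genes and 4 of 6 oligodendrocyte genes. Of microglia genes 4 of 6 were marked, of endothelial genes 6 of 6, and of liver and muscle genes 1 of 6 (Acta1). Of all protein-coding genes 58.5% were marked. The median promoter signal of marked genes was 13.5 for excitatory neurons and 8.86 for all protein-coding genes. It was lower for oligodendrocytes (5.43), astrocytes (4.95), microglia (4.03), endothelial cells (3.74) and interneurons (3.37). Endothelial and excitatory neuron genes were thus marked equally often but, apart from Slc2a1 (16.7), not equally highly.

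Most Rab genes carried a promoter peak, and their signal was of ordinary height. In the replicated list 51 of 60 members were marked (85.0%), against 58.5% of all protein-coding genes. The list of pool I alone gave 49 members (58.2% of all protein-coding genes) and the list of pool J alone gave 49 (55.2%). In both pool lists 48 members had a promoter peak (54.7% of all protein-coding genes), and 48 of the 51 marked members were among them, against 93.6% of all marked genes. The median promoter signal was 8.66 over the 51 marked members and 8.86 over all 12719 marked protein-coding genes, and the median member stood at percentile 48.7 of those genes. The 7 highest members stood at percentile 91.0 or above. A promoter peak of 2 kb or wider was found at 8 of 51 members, beside 18.3% of all marked genes. The members were therefore more often marked than protein-coding genes at large but not more highly, and these counts were read without a test, since genes are not replicates.

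The promoter sequences of the Rab3 paralogs are shown because these 4 close relatives differed in their peaks, together with Rab1b, which had the highest promoter signal of the family, and Rab25, an epithelial Rab without a promoter peak. Each runs 5′ to 3′ from 250 bases before to 50 after the start site, from RefSeq on GRCm38.p6, with CpG dinucleotides in capitals. They lie at chr8:70754453-70754752 on the plus strand for Rab3a, chr4:108878820-108879119 on the plus strand for Rab3b, chr13:110280157-110280456 on the minus strand for Rab3c, chr9:21918134-21918433 on the minus strand for Rab3d, chr19:5106947-5107246 on the minus strand for Rab1b and chr3:88548230-88548529 on the minus strand for Rab25.
Rab3a: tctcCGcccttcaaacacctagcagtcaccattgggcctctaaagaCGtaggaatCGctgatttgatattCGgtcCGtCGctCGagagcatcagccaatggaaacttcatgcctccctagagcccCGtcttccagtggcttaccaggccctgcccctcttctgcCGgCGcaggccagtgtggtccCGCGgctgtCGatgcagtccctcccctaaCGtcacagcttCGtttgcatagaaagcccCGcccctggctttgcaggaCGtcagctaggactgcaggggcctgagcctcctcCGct
Rab3b: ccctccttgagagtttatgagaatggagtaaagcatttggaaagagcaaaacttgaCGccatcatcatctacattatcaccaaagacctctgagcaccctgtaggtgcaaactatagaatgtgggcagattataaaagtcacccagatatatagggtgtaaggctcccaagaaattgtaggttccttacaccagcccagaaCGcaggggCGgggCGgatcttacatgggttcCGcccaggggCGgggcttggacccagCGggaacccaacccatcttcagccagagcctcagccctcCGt
Rab3c: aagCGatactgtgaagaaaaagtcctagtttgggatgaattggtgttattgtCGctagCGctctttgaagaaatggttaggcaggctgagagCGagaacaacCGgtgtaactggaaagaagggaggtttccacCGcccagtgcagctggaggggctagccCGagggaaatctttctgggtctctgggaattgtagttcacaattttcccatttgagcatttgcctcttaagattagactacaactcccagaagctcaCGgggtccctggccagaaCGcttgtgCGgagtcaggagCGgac
Rab3d: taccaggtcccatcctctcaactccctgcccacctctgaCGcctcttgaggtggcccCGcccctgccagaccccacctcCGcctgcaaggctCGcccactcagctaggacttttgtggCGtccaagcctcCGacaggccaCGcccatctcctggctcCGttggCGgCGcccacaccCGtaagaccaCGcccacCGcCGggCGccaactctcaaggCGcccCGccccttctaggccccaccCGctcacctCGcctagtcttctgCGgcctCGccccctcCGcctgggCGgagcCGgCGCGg
Rab1b: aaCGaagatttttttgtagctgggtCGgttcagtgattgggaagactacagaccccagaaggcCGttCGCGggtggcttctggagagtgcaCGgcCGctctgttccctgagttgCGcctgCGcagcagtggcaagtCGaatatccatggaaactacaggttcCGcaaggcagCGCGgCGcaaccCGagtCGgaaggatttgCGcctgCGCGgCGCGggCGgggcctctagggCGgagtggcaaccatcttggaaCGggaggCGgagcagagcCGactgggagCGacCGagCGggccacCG
Rab25: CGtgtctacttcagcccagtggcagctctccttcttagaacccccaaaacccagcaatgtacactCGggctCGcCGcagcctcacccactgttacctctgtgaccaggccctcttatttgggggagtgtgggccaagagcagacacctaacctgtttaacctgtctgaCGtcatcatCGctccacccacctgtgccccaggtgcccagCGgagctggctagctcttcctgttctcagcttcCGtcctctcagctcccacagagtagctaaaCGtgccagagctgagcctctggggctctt
These windows hold 18 CpG in Rab3a, 8 in Rab3b, 11 in Rab3c, 26 in Rab3d, 30 in Rab1b and 9 in Rab25. The letters TATAAA, the motif of the TATA box, stand in the window of Rab3b and in none of the other 5. In Rab3b they lie near the middle of the window and not next to the start site. Whether they act as a TATA box was not tested.

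**Figure D1:**
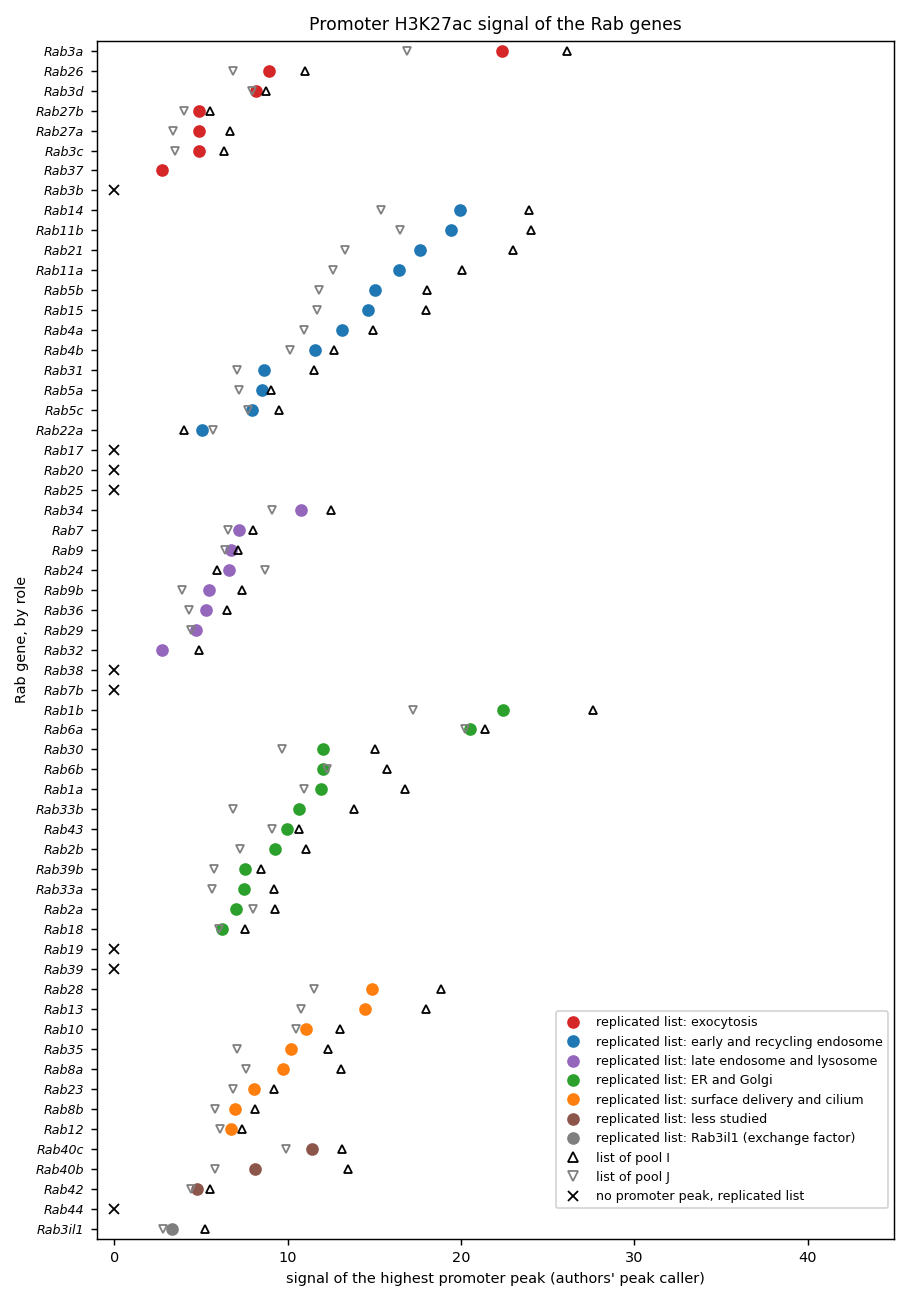
Promoter H3K27ac signal (authors' peak caller) of the 60 Rab genes, grouped by role, with the replicated list as filled circles, the list of pool I as upward triangles and the list of pool J as downward triangles; crosses mark the 9 genes without a promoter peak in the replicated list. Rab3a (22.4) and Rab1b (22.4) stand highest, and pool I lies above pool J at all but 2 of the 48 genes that both pool lists hold.

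The Rabs of regulated secretion, which tether and prime vesicles before they fuse with the plasma membrane, were marked at 7 of 8 genes, against 43 of 51 other Rab GTPase genes (84.3%). Rab3a, the main Rab of synaptic vesicles, had a signal of 26.1 in pool I, 16.9 in pool J and 22.4 in the replicated list, at a peak of 1772 bp (chr8:70754629-70756400). It stood at percentile 98.1 of marked genes, and no other exocytosis Rab came within 2-fold of it in the replicated list. Rab26, a Rab of secretory granules and synaptic vesicle clusters, had signals of 11.01 in pool I, 6.82 in pool J and 8.91 in the replicated list (chr17:24532591-24534093). Rab3d, best known from the granules of secretory cells, had 8.74 in pool I, 7.96 in pool J and 8.16 in the replicated list, at a peak of 2241 bp (chr9:21916569-21918809). These 2 genes stood near the middle of marked genes, at percentiles 50.6 and 44.2.

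The next 3 exocytosis Rabs stood low among marked genes. Rab27b, which drives dense granule and vesicle secretion, had signals of 5.50 in pool I, 4.05 in pool J and 4.89 in the replicated list (chr18:70141114-70141959). Rab27a, the Rab of melanosomes and lytic granules, had 6.68 in pool I, 3.38 in pool J and 4.86 in the replicated list (chr9:73044299-73045515). Rab3c, a second Rab of synaptic vesicles, had 6.34 in pool I, 3.53 in pool J and 4.86 in the replicated list (chr13:110279193-110280137). Their percentiles, 16.8, 16.5 and 16.5, lie within 1 point of each other, and pool I was higher than pool J at each.

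Rab37, described in mast cell granules, had a narrow peak of 247 bp with a signal of 2.75 in the replicated list (chr11:115091500-115091746) and none in the list of either pool. Rab3b, another Rab3 of secretory vesicles, had no promoter peak in the replicated list or in either pool list. The replicated peak nearest to a TSS of Rab3b lay 15061 bp away with a signal of 2.67. All 5 distal peaks nearest to Rab3b lay in its own introns, and 2 of them were in the list of pool I and 0 in the list of pool J. Rab3 paralogs therefore ran from the second highest promoter signal of the family to no promoter peak.

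Set beside the rest of the family, the exocytosis Rabs had a lower median promoter signal. Rab3a stood high, and Rab26 (8.91) and Rab3d (8.16) lay between the quartiles of the other marked Rab GTPase genes (6.985 and 12.59). The median signal was 4.89 over the 7 marked exocytosis Rabs and 9.76 over the 43 other marked Rab GTPase genes, with median percentiles of 16.8 and 57.4. Ranked within the list of pool I, the medians were percentiles 29.2 for exocytosis Rabs and 62.2 for the others. Ranked within the list of pool J, they were 24.2 and 50.5. Both pools gave the same direction, with 6 exocytosis genes in each, and the gap of -40.5 points in the replicated list was -26.8 without Rab37. Leaving out every promoter peak near the TSS of another gene gave -27.0. Peak width did not follow signal: the median was 1217 bp in exocytosis Rabs and 1073 bp in the others. With 7 genes in 1 class and no contrast, no test of this gap was made.

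**Figure D2:**
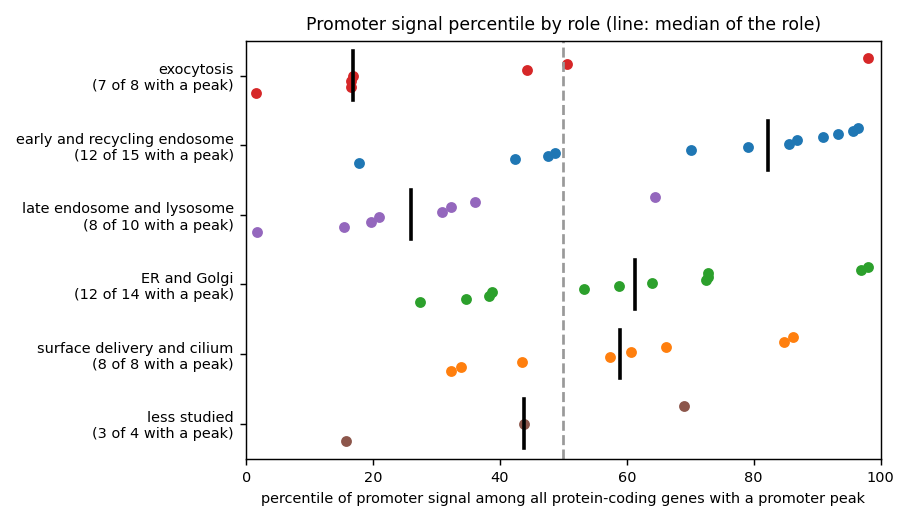
Percentile of promoter signal among all protein-coding genes with a promoter peak in the replicated list, for each marked Rab gene by role; black lines are the medians of each role and the dashed line is the middle of all marked genes. Early and recycling endosome Rabs have the highest median (82.3). Exocytosis Rabs have a median of 16.8, or 30.5 without Rab37, with Rab3a at 98.1, and late endosome and lysosome Rabs have 25.9.

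Rabs of early and recycling endosomes, which sort internalised receptors and return them to the surface, had the highest promoter signals of the role classes. Of 15 genes 12 were marked, with a median signal of 13.9 and a median percentile of 82.3, and 4 of them were among the 7 highest members. Rab14, which works between the Golgi and endosomes, had signals of 23.9 in pool I, 15.4 in pool J and 19.9 in the replicated list (chr2:35199777-35201074). Rab11b, a recycling endosome Rab, had 24.0 in pool I, 16.5 in pool J and 19.4 in the replicated list (chr17:33759768-33760396). Its close relative Rab11a had 20.1 in pool I, 12.6 in pool J and 16.4 in the replicated list. The Rab11 pair thus stood at percentiles 95.7 for Rab11b and 91.0 for Rab11a. The Rab11b peak of 629 bp is the higher of 2 peaks parted by 311 bp, and the Rab11a peak of 2272 bp is a single one.

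Rab21, which guides integrin traffic, had signals of 23.0 in pool I, 13.3 in pool J and 17.7 in the replicated list, at a peak of 2547 bp (chr10:115314208-115316754). Rab15, a Rab of early and recycling endosomes found in neurons, had 18.0 in pool I, 11.7 in pool J and 14.6 in the replicated list. The peak of Rab15 was the widest of the family, with 6508 bp in pool I, 3906 bp in pool J and 5845 bp in the replicated list (chr12:76817278-76823122). The 3 Rab5 genes, which direct fusion of early endosomes, differed among themselves. Rab5b had signals of 18.1 in pool I, 11.8 in pool J and 15.0 in the replicated list. Rab5a had 9.04 in pool I, 7.19 in pool J and 8.53 in the replicated list. Rab5c was close to Rab5a, with 9.51 in pool I, 7.72 in pool J and 7.94 in the replicated list.

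Rab4a, a Rab of fast recycling, had a signal of 13.1 in the replicated list at a peak of 2479 bp (chr8:123805382-123807860), and its relative Rab4b had 11.6 at a peak of 1019 bp. Rab4b also had a second, lower peak at its TSS (4.45). Rab31, which acts between the trans-Golgi and endosomes, had 8.66 at a peak of 2366 bp. The lowest of this class was Rab22a, an endosomal Rab, with 4.01 in pool I, 5.69 in pool J and 5.04 in the replicated list. Rab17 and Rab25, known from polarised epithelia, and Rab20, studied in macrophage phagosomes, were the 3 genes of the class without a promoter peak.

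Rabs of the ER and Golgi held the family's highest promoter signal. Of 14 genes 12 were marked, with a median signal of 10.3 and a median percentile of 61.3. Rab1b, which carries cargo out of the ER, had 27.6 in pool I, 17.3 in pool J and 22.4 in the replicated list (chr19:5105806-5107066). Rab1a, its near copy in function, had 16.8 in pool I, 10.9 in pool J and 11.95 in the replicated list, at a peak of 637 bp. A second replicated peak at the TSS of Rab1a had 11.35. Rab6a, which returns cargo from endosomes to the Golgi, had 21.4 in pool I, 20.2 in pool J and 20.5 in the replicated list (chr7:100607598-100608831), so its pools differed least of the family. That peak also lies near the TSS of Mrpl48, so its signal need not be that of Rab6a alone. Rab6b, the neuronal relative of Rab6a, had 15.7 in pool I, 12.2 in pool J and 12.02 in the replicated list, at a peak of 3125 bp (chr9:103110843-103113967). The Rab6 pair differed in height. The Rab6a width of 1234 bp is that of the higher of 2 peaks parted by 224 bp, while Rab6b had 1 peak. Their widths therefore do not compare like stretches.

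The other Golgi members lay between 6.23 (Rab18, a Rab of the ER and lipid droplets) and 12.02 (Rab30). Between them stood Rab2a (7.03) and Rab2b (9.26), which act between the ER and the Golgi, and Rab43 (9.95). Rab33b, a Golgi and autophagy Rab, had 13.8 in pool I, 6.82 in pool J and 10.7 in the replicated list, and its relative Rab33a had 9.21 in pool I, 5.65 in pool J and 7.46 in the replicated list. Rab39b, which is mutated in X-linked intellectual disability in humans, was marked with 8.46 in pool I, 5.75 in pool J and 7.53 in the replicated list. Its relative Rab39 had no promoter peak, and neither had Rab19.

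Rabs of late endosomes and lysosomes stood low, with 8 of 10 marked, a median signal of 6.04 and a median percentile of 25.9. The order of this class and the exocytosis Rabs turned with the list and with Rab37: exocytosis Rabs had 29.2 against 25.6 in the list of pool I, 24.2 against 34.2 in the list of pool J, and 30.5 against 25.9 in the replicated list without Rab37. Rab34, which positions lysosomes and takes part in cilium formation, was the highest with 10.8 in the replicated list. Rab9 (6.76) and Rab9b (5.46), which return receptors from late endosomes to the Golgi, and Rab36 (5.27) stood lower. Rab7, the main late endosome Rab, had 8.02 in pool I, 6.56 in pool J and 7.22 in the replicated list. Rab24, an autophagy Rab, had 5.94 in pool I, 8.72 in pool J and 6.62 in the replicated list, and its peak also lies near the TSS of Prelid1. Rab29, a Rab linked to the kinase Lrrk2, had a peak in the list of pool J (4.41) and in the replicated list (4.73, chr1:131867250-131867599) but not in that of pool I. Rab32, known from melanosomes, had one in the list of pool I (4.89) and in the replicated list (2.77, chr10:10557726-10558174) but not in that of pool J. Rab38, the melanosome relative of Rab32, and Rab7b had none.

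All 8 Rabs of surface delivery and cilia were marked, with a median signal of 9.99 and a median percentile of 59.0. Rab28, a Rab of cilia and photoreceptors, was the highest with 18.8 in pool I, 11.5 in pool J and 14.8 in the replicated list. Rab13, a Rab of cell junctions, had 18.0 in pool I, 10.8 in pool J and 14.4 in the replicated list, at a peak shared with Rps27. Rab10, Rab35, Rab23 and Rab12 lay between 6.76 (Rab12) and 11.04 (Rab10). Rab8a, which carries vesicles to the membrane and to cilia, had 13.1 in pool I, 7.61 in pool J and 9.76 in the replicated list. Rab8b, its paralog, had 8.12 in pool I, 5.80 in pool J and 6.94 in the replicated list. Among the less studied members, Rab40c, a Rab with a SOCS box that recruits ubiquitin ligases, had 11.4 in the replicated list. Its relative Rab40b had 13.5 in pool I, 5.80 in pool J and 8.09 in the replicated list, Rab42 had 4.76, and Rab44, a large immune cell Rab, had no promoter peak. Rab3il1 had 5.24 in pool I, 2.79 in pool J and 3.34 in the replicated list, at a peak of 376 bp (chr19:10018326-10018701).

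The 5 lowest promoter signals belonged to Rab37, Rab32, Rab3il1, Rab29 and Rab42. The 9 members without a promoter peak were Rab3b, Rab7b, Rab17, Rab19, Rab20, Rab25, Rab38, Rab39 and Rab44. Their nearest replicated peaks lay at 3430 bp (Rab19), 3939 bp (Rab25), 5272 bp (Rab17), 15061 bp (Rab3b), 18128 bp (Rab44), 18262 bp (Rab20), 30481 bp (Rab7b), 38064 bp (Rab39) and 151667 bp (Rab38) from a TSS. A window of 2500 bp in place of 1000 bp marked the same count of 51, and so did one of 500 bp.

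Pool I had the higher signal at nearly every member. Over the 48 genes in both pool lists, the log2 ratio of pool I over pool J had a median of 0.58 and ran from -0.55 (Rab24) to 1.22 (Rab40b). The median over all 11906 protein-coding genes in both lists was 0.49. Rab22a (-0.50) and Rab24 (-0.55) were the 2 of 48 members with the higher signal in pool J, beside 7.45% of all genes in both lists. The lists were called for each pool alone, and with 1 list per pool no difference between them was tested.

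The highest promoter peak of most members lay mainly downstream of the start. It reached further downstream than upstream of the TSS at 45 of 51 marked members, beside 66.8% of all marked genes. The median reach was 958 bp downstream and 95 bp upstream in members, against 728 bp downstream and 485 bp upstream in all marked genes. Among genes whose peak lies near no other TSS, 38 of 39 members leaned downstream, beside 72.1% of such genes. Peaks were often paired: 25 of 51 members had 2 peaks within 1 kb of the TSS, beside 34.5% of marked genes, and 17 of 39 members near no other TSS did, beside 33.5%. The median gap between the 2 peaks was 224 bp in members (116 to 683 bp) and 165 bp in all genes with 2. The higher of the pair was the downstream one in 20 of 25 members, beside 58.4% of such genes.

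Rab3a shows this form, with an upstream peak of 10.2 and a downstream peak of 22.4 parted by 116 bp. Rab1b had 3.54 upstream and 22.4 downstream, with a gap of 127 bp. Rab14 had 11.2 upstream and 19.9 downstream, with a gap of 151 bp. The upstream peak was the higher at Rab1a, Rab2b, Rab30, Rab35 and Rab42. Where a stretch of acetylation is split into 2 peaks depends on the peak caller's settings, which the sources used here do not give.

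**Figure D3:**
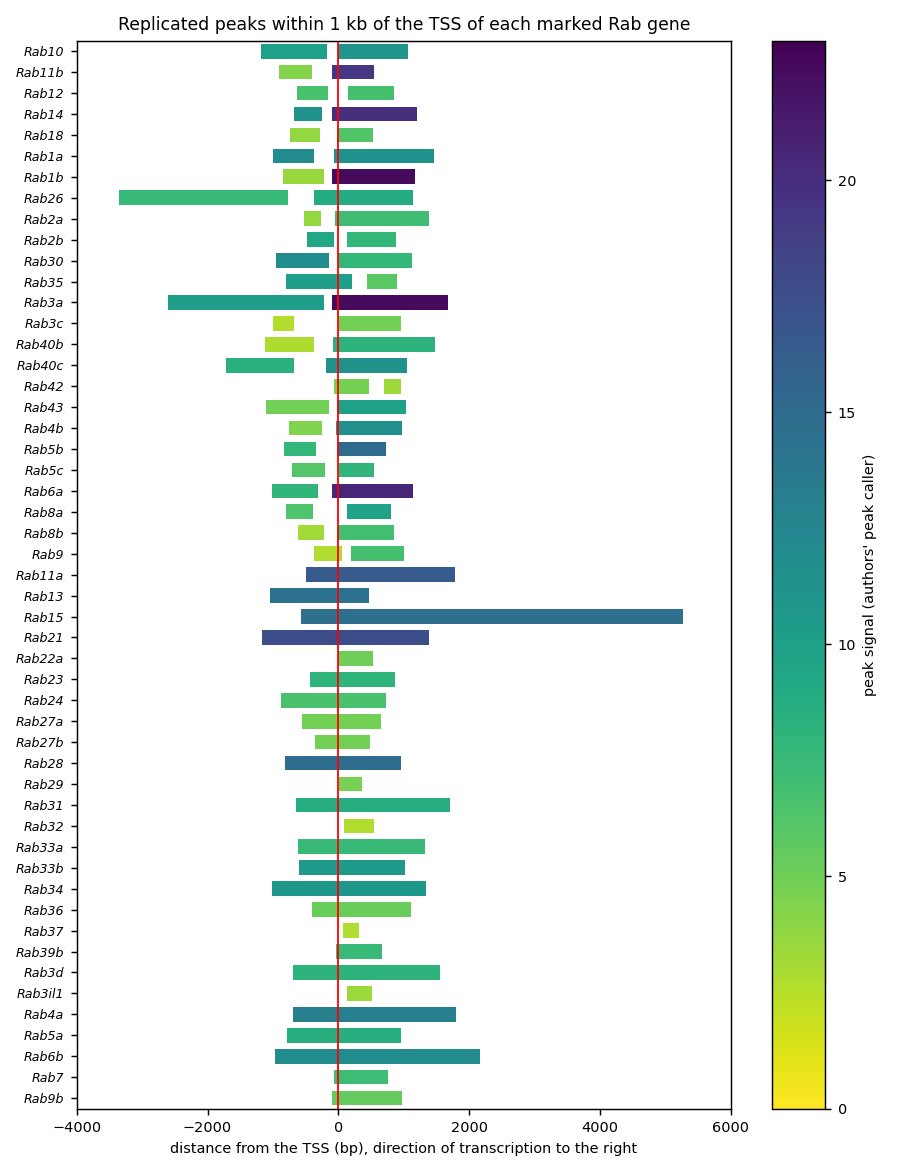
Replicated peaks within 1 kb of the TSS of the 51 marked Rab genes, as distance from that TSS in bp with transcription to the right; the colour is the signal of each peak. The 25 genes with 2 peaks stand above the 26 with 1, and the gap of a pair mostly lies just upstream of the TSS (red line).

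Some members share their promoter with a neighbour. The highest promoter peak of 12 of 51 members lay near a TSS of another gene, beside 31.8% of marked genes. For 4 of 51 members that gene was protein-coding, beside 19.7%: Mrpl48 for Rab6a, Rps27 for Rab13, Prelid1 for Rab24 and Tox4 for Rab2b. The other 8 lay near a long non-coding RNA only, among them those of Rab11b, Rab21, Rab26, Rab30 and Rab8a. With all 12 left out, the median member stood at percentile 42.4.

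Alternative starts were marked in part. Rab27b has 2 annotated TSSs that span 88.0 kb, and 1 of them had a peak. Rab30 has 3 over 78.3 kb with 1 marked, and Rab37 has 2 over 62.7 kb with 1 marked. Rab15 had peaks at 2 of 4 TSSs over 17.1 kb, while Rab7 had them at all 5 over 25.5 kb.

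Base composition was then set beside the mark, since CpG-rich promoters are broadly active. A promoter was called CpG-rich where the 500 bp on either side of the most 5′ TSS had an observed over expected CpG ratio of at least 0.6 and a GC content of at least 50%. Of 37 CpG-rich members 35 were marked (94.6%), beside 90.8% of CpG-rich protein-coding genes. Of 23 CpG-poor members 16 were marked (69.6%), beside 30.5% of CpG-poor protein-coding genes. The CpG-poor members were not as poor as others of that class, with a median ratio of 0.509 against 0.246, so the 2 shares do not compare like promoters. CpG-rich promoters were found at 2 of 8 exocytosis Rabs, 35 of 51 other Rab GTPase genes and 46.4% of protein-coding genes. The 2 were Rab3a, with a ratio of 0.68, and Rab3d, with 0.60. Rab3c at 0.59 lay just under the limit, and Rab3b stood at 0.50. The median signal was 10.7 over the 35 marked CpG-rich members and 5.37 over the 16 marked CpG-poor ones, against 9.52 and 6.93 over all marked CpG-rich and CpG-poor genes. CpG content thus moved with the gap between exocytosis Rabs and the others, and its part in that gap was not tested. Rab26, with 0.30, was marked at 8.91, while Rab20 (0.69) and Rab39 (0.76) were CpG-rich with no promoter peak.

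**Figure D4:**
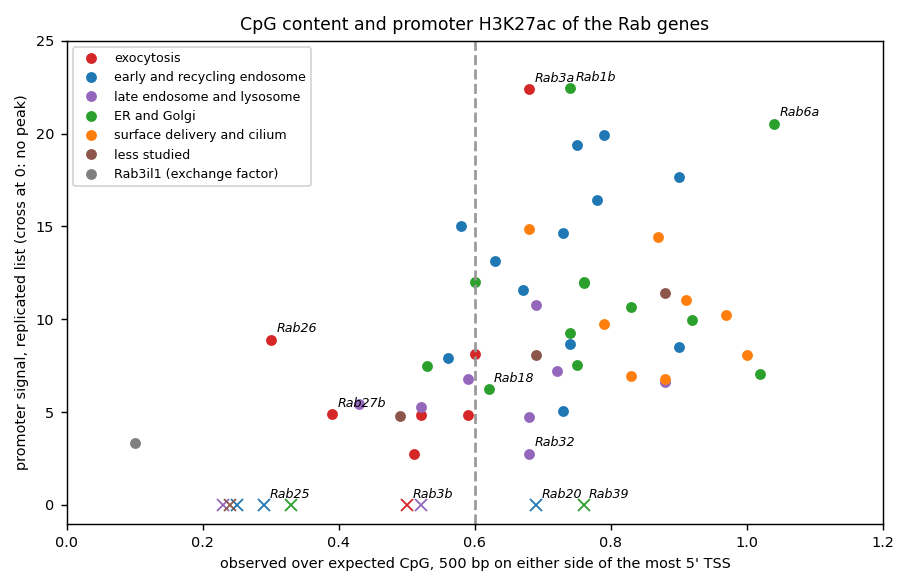
Observed over expected CpG ratio in the 500 bp on either side of the most 5′ TSS against promoter signal in the replicated list, 1 point per Rab gene, coloured by role; crosses at 0 are genes with no promoter peak and the dashed line is the limit of 0.6 used for CpG-rich. Of the 9 crosses, 2 lie right of the line (Rab20 and Rab39), and 2 of the 8 exocytosis genes have a ratio of at least 0.6 (Rab3a and Rab3d).

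RefSeq promoter windows of 300 bases were found for 49 of the 60 members. For a marked member, the window closest to the TSS nearest its promoter peak summit was kept. For an unmarked member it was the window closest to the gene's 5′ end. The set of all RefSeq windows was taken without such a choice and was not limited to the protein-coding genes used here. The shares of members and of all windows therefore do not compare like windows. The median window held 24 CpG in the 43 marked members (6 to 43), 9 in the 6 unmarked members (5 to 27) and 7 in all RefSeq windows. Searched on both strands, the letters GGGCGG, the GC box, occurred in 36 of 49 members (73.5%) and 35.7% of all windows, in 33 of 43 marked members and in 3 of 6 unmarked ones. CCAAT occurred in 46.9% of member windows against 37.4% of all, and CACGTG, an E-box, in 12.2% against 7.15%. TATAAA occurred in 4 members, Rab3b, Rab7, Rab39b and Rab42, which is 8.16% against 13.6% of all windows. TGACGTCA, the cyclic AMP response element, occurred in Rab5a and Rab25. The NRF1 motif occurred in 0 of 49 windows, against 0.971% of all. A motif of G and C letters is more frequent in GC-rich windows, and these matches are descriptions of letters and not of binding.

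Distal peaks, those near no TSS, were assigned by distance to the closest coding TSS, up to 100 kb away. A name beside such a peak is therefore its neighbour and need not be its target. Some lie only a few kb from a TSS, as the 6 of Rab15 do at 1.4 to 3.2 kb. The members had 132 distal peaks, or 2.2 per gene, against 1.85 per protein-coding gene. At least 1 distal peak was found at 31 of 60 members, beside 39.6% of all genes, and 5 or more at 8 of 60, beside 12.2%. Per 100 kb of sequence nearest to the gene, the rate was 3.63 for members and 2.63 for all genes. The members' rate rests in part on Rab4a and Rab6b, with 19 and 17 of the peaks, and was not computed without them. The median distal signal was 3.17 in members and 3.37 in all. Of the 132 peaks, 85 (64.4%) lay inside the Rab gene itself, against 58.1% of all distal peaks inside the gene they were assigned to. In an intron of some protein-coding gene lay 104 (78.8%, against 66.5% of all distal peaks), in an exon 5 (3.79%, against 6.26%), and 23 were intergenic (17.4%, against 27.3%). In both pool lists were 56 of the 132 (42.4%), against 46.8% of the 40240 distal peaks of all protein-coding genes. A further 45 were in the list of pool I only (34.1%, against 31.4%), 5 in that of pool J only (3.79%, against 4.43%) and 26 in neither (19.7%, against 17.4%), so the members' shares stood near those of all distal peaks.

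These distal peaks were gathered at a few members. Rab4a had 19, Rab6b 17, Rab31 and Rab40c 9 each, Rab7 8, Rab15 6, and Rab30 and Rab3b 5 each, while 29 members had none. Exocytosis Rabs had 15 distal peaks at 6 of 8 genes, or 2.66 per 100 kb, against 117 at 25 of 51 other Rab GTPase genes, or 3.84 per 100 kb. By role the rate was 5.98 per 100 kb for early and recycling endosome Rabs, 3.44 for ER and Golgi Rabs, 1.95 for surface delivery and cilium Rabs and 1.47 for late endosome and lysosome Rabs, where all 8 peaks belonged to Rab7. The 4 less studied Rabs had the highest rate of the roles, 9.87 per 100 kb, from 17 peaks at 3 genes, 9 of them at Rab40c. Rab4a and Rab6b alone therefore gave 36 of the 132, from 102.8 kb and 97.1 kb of nearest sequence. Both count among the other Rab GTPase genes, Rab4a in the early and recycling endosome class and Rab6b in the ER and Golgi class. The rates of those sets rest in part on Rab4a and Rab6b and were not computed without them.

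The highest distal peak lay 2.6 kb upstream of Rab6b in intergenic sequence (chr9:103108911-103110336), with a signal of 10.4 in pool I, 5.38 in pool J and 7.96 in the replicated list. It lies just upstream of the Rab6b promoter peak, which starts at chr9:103110843. Next to Rab4a, a peak 19.2 kb upstream (chr8:123786444-123787017) had 10.2 in pool I, 5.01 in pool J and 7.36 in the replicated list, and lies in an intron of Gm20388. A second one 20.1 kb upstream of Rab4a (chr8:123785301-123786309) had 7.98 in pool I, 5.57 in pool J and 6.66 in the replicated list. Both belong to a group of upstream peaks, which together with a group inside the gene makes Rab4a the richest member. Rab26 had a peak 4.1 kb upstream (chr17:24537860-24538887) with 5.14 in pool I, 6.86 in pool J and 7.06 in the replicated list. Another of the 5 highest stood near Rab44, 41.6 kb downstream of its TSS in an intron of Cpne5 (chr17:29175934-29177077), with 8.19 in pool I, 5.38 in pool J and 6.76 in the replicated list. Rab44 itself was unmarked, so this peak is named after it by distance alone.

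**Figure D5:**
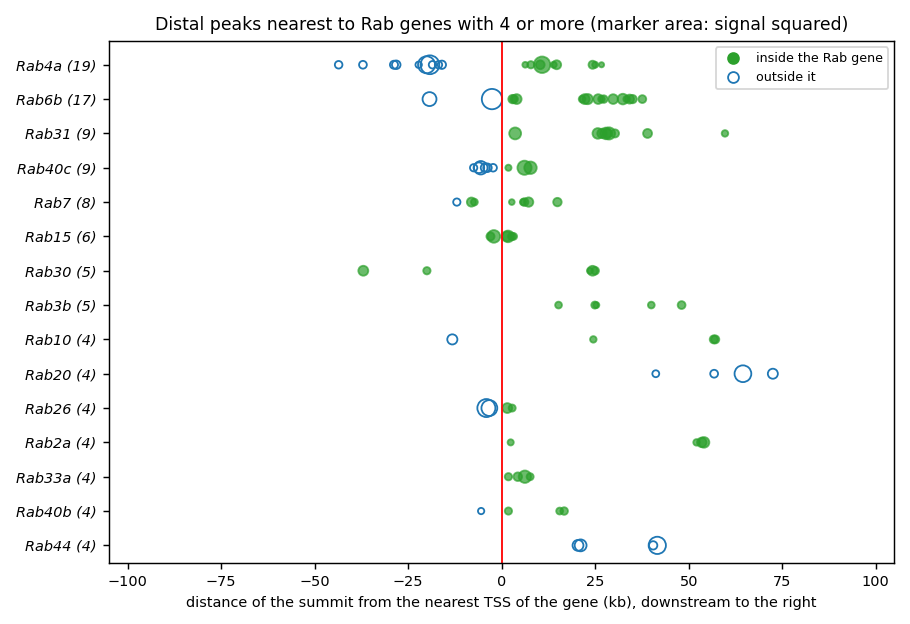
Distance in kb from the nearest TSS of the gene to the summit of each distal peak, for the 15 Rab genes with 4 or more in the replicated list; filled circles lie inside the Rab gene, open circles outside it, and marker area grows with the square of the signal. Rab4a (19) has a group upstream and a group inside the gene, while the 5 of Rab3b and the 9 of Rab31 all lie inside their genes.

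Letters were also searched in the 300 bases around the summits of these distal peaks. TGANTCA, the AP-1 motif, occurred in 8.33% of the 132 windows and 9.13% of all 40240. CAGATG, an E-box of neuronal bHLH factors, occurred in 24.2% of member windows and 24.9% of all. The MEF2 motif occurred in 4 of 132 member windows (3.03%) and in 5.03% of all. TGACGTCA occurred in 0.758% of member windows and 0.266% of all, and at this number of windows 1 window more or less moves that share visibly.

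Most genes that run the Rab cycle were marked as well, where 58.5% of all protein-coding genes were. All 8 cycle factors were marked, with a median percentile of 63.6. Among them Rabggtb, the catalytic subunit of the transferase that attaches the lipid anchor, had a signal of 17.8, and Rabac1, a receptor for prenylated Rabs, had 13.4. Of the exchange factors, 27 of 30 were marked with a median percentile of 70.2, led by Dennd6a (25.5), Dennd6b (22.2) and Dennd5a (17.1). Dennd1c, Dennd2c and Dennd2d had no promoter peak. Of the GTPase-activating proteins, 35 of 36 were marked with a median percentile of 64.0, led by Tbc1d17 (19.8), Tbc1d5 (16.1) and Rab3gap2 (15.3), a subunit of the complex that acts on Rab3 and Rab18. Grtp1 was the one without.

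Of the effectors, 30 of 38 were marked, with a median percentile of 50.5. The highest were Bicd1 (15.4), a dynein adaptor of Rab6, Myrip (14.4), which links Rab27 to myosin, and Rabep1 (14.0), which binds Rab5. The 8 without a promoter peak included Mlph, the melanosome effector of Rab27a, and the Rab27 effectors Sytl1 and Sytl3, besides Mical3, Micall2 and Rab11fip1. Rab3il1 is also in the list of exchange factors, so the lists are not fully apart from the members. Whether the promoter peaks of these lists lie near the TSSs of other genes was not tested.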

How the data were processed

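H3K27ac was profiled in 4 libraries of 2 pools, and the group of each came from the labels. The authors deposited 4 narrowPeak lists on mm10 with 10 columns. Per the file headers and descriptions, 2 lists come from both pools and 1 from each pool. The authors' peak caller gave each peak a signal, a −log10 p-value and a −log10 q-value, and the sources used here do not give the aligner, the caller or the normalization. Lists exist per pool, not per library, and reads of the CAST/EiJ copy may align less well to the reference. Signal tracks were not used here.

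Peaks on 19 autosomes and X were assigned to 34568 protein-coding and long non-coding genes with 55728 TSSs. The assignment was tested on simulated data. Promoter peaks overlapped 1000 bp around any TSS, pool peaks matched by at least 1 bp, and distal peaks went to the nearest coding TSS within 100 kb. The reference genome was GRCm38.p6. Tools were Python 3.11.15, pandas 2.3.3, numpy 2.4.6, scipy 1.17.1 and matplotlib 3.10.9.

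The members, role lists and regulator lists were chosen with earlier results of these data known. Named genes were all exocytosis Rabs, members without a promoter peak or in 1 pool list only, the 10 highest and 5 lowest by promoter signal, the 5 with the widest promoter peak, the 5 with most distal peaks, the 5 highest distal peaks, paralog pairs, and the 3 highest and up to 6 unmarked genes of each regulator list. The value of 1 gene that this rule names is not reported here. Other members named to illustrate a role or a pattern were chosen after their values were seen. No test was run, since the design has 1 group. Alternatives were other windows, the gene's 5′ end alone, other lists, a −log10 q of at least 5, other distal limits and a narrow synaptic list.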

Additional observations from a re-analysis of the deposited data

How the results depend on the processing

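Of 44 alternative values, 30 moved by less than the spread between the pools (or, for a count, stayed within 1.5 times). The other 14 moved by more, and 0 changed sign. Only the gap between exocytosis and other Rabs could change sign, since counts, percentiles and widths cannot be negative. The number of members with a promoter peak was 48 to 51 under every alternative run for it. Leaving out peaks near another TSS was not run for this number, and 39 marked members have a peak near no other TSS. In both pool lists were 48 members with either overlap rule. The median percentile (48.7) was 47.7 to 53.4 in 1 pool alone and 42.4 without peaks near another TSS. The median width (1073 bp) was 1217 bp at the gene's 5′ end alone, 1217 bp in the pseudoreplicated list of both pools and 1224 bp with only peaks of −log10 q 5 or more. The gap between exocytosis and other Rabs (-40.5 points) was -27.5 in the pseudoreplicated list, -29.4 under that q limit, -33.0 to -26.3 in 1 pool alone, -33.8 with the narrow synaptic list (Rab3a, Rab3b, Rab3c and Rab27b), -27.0 without peaks near another TSS and -26.8 without Rab37. Rab37 has no promoter peak in the pseudoreplicated list, in either pool list or under the q limit, which left 6 exocytosis genes there. Rab3b has no promoter peak, so the median of the narrow synaptic list came from 3 genes. The 132 distal peaks became 47 under the q limit, which keeps fewer peaks, and 68 to 115 in 1 pool alone, where 68 was without pool I. For the other shifts the cause was not tested. The settings without Rab3il1, Rab3a, Rab37 or peaks near another TSS were chosen after seeing the data. No paired analysis was possible because the series has 1 group. Unknown depth and 1 list per pool limit what the absence of a weak peak means.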

Other observations

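Rab-like genes outside the naming rule were marked as well. Rabl3 had a promoter signal of 22.4 at percentile 98.1, level with Rab3a and Rab1b, Rabl6 had 19.9 at percentile 96.3, and Rabl2 had 7.46 at percentile 38.3. Among long non-coding RNAs named after Rab genes, Rab10os had 10.4, Rab26os 8.94 and Rab11fip4os2 10.7, while Rab11fip4os1 had no promoter peak. Distal peaks numbered 0.625 per gene for the 8 cycle factors, 2.13 for the 30 exchange factors, 5.56 for the 36 GTPase-activating proteins and 4.61 for the 38 effectors, against 1.85 per protein-coding gene. These rates are not scaled to the length of sequence nearest to each gene.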
